A study of Mus musculus with 20 samples.

Results

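Eph receptors are tyrosine kinases of the cell surface, and their ligands, the ephrins, are held on the surface of the neighbouring cell, so that the pair signals only where cells touch. EphA receptors mainly bind the lipid-anchored ephrin-A ligands and EphB receptors mainly bind the transmembrane ephrin-B ligands, with EPHA4 able to bind both classes, and signals can run into the cell with the receptor and into the cell with the ligand. The family is best known for guiding axons, forming tissue boundaries and sorting cells, and EPHA2 is a prominent member in mouse embryonic stem cells.

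The genes described here were taken by symbol from the deposited expression table of 13283 gene symbols. Of the 9 genes named, 8 were found: the receptor genes Epha4, Epha2, Ephb2, Ephb3 and Ephb4 and the ligand genes Efna4, Efnb1 and Efnb2. Epha1 is not analysed here. The set was chosen by gene name with the high Epha4 values of the R595H/R595H clones in view, which were known from earlier results of these data, so the Epha4 values in the comparisons that use those clones are given as a description, with no test. The other members and the lists of further genes were also chosen with earlier results of these data known, a limit on the calls given below.

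The libraries are bulk mRNA of male C57BL/6 mouse embryonic stem cells grown in FCS with LIF and the 2i inhibitors, and they ask what changes when TRIM71, which binds RNA in pluripotent cells, is lost or carries the amino acid change R595H. Trim71-KO cells (4 libraries), in which the gene was deleted, were set against Trim71-cond cells (4 libraries), which carry floxed Trim71 alleles, with the codes 1A, 2B, 3A and 3B in both groups. In a separate set of clonal lines, 3 homozygous clones (R595H/R595H, C14, C20 and C24) and 3 heterozygous clones (R595H/+, C15, C21 and C23) were set against 3 WT clones (C16, C7 and C5). Clones C14, C15 and C16 have a library from each of the dates 20/1 and 5/2 in the sample titles, which do not match the day given elsewhere in the labels of some of these samples, and these were averaged, so that the clone is the replicate. How Trim71 was deleted is not given in the sources used here, and nothing says that the conditional libraries came from separate cultures, so p-values there measure only the spread between these libraries.

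Trim71 itself averaged 7.47 ± 0.05 in Trim71-KO and 8.95 ± 0.04 in Trim71-cond libraries on the log2 scale (SD, n = 4 each; two-sided exact permutation p = 0.0286, the smallest this design allows). It averaged 10.11 ± 0.10 in R595H/R595H and 9.50 ± 0.03 in WT clones (SD, n = 3 each; exact permutation p = 0.1, again the smallest possible). All 10 stem cell markers examined were well expressed, with a mean between 8.98 and 9.16 per library, while the 2 fibroblast markers in the table (Thy1 and Pdgfrb, of 8 named) and the 4 endoderm markers (of 6) were all below the filter on low values. Of 6 neural markers 3 were in the table, and Nes (median 6.29) and Tubb3 (median 4.29) were above that filter. Neither was called in any comparison, though Tubb3 was 0.415 higher in R595H/R595H than in R595H/+ clones without overlap (limma adjusted p = 0.114), and its part in the results was not tested. Of the 10 stem cell markers, 2 were called higher in Trim71-KO than in Trim71-cond libraries and 1 lower, where 9.24% and 9.37% of all genes were. These were Nanog (0.387, limma adjusted p = 1.36e-05), Sox2 (0.233, 0.00647) and Zfp42 (-0.197, 0.0394). Their part in the results of the conditional cells was not tested, and no stem cell marker was called between clones. Library medians lay between 5.15 and 5.20, and the read depth is unknown. The R595H/R595H clones C14 and C24 stood closer to each other than libraries of the same clone elsewhere. The SD of their differences over the genes above the filter on low values was 0.0918 and 0.0922, against 0.033 for the C14 libraries, 0.148 for the C15 libraries and 0.151 for the C16 libraries, and the median of 66 pairs was 0.203. Other pairs of different clones also lay below the C15 and C16 values. These were C21 with C15 from 5/2 (0.12), and WT C16 from 20/1 with C7 (0.131), C5 (0.1325) and R595H/+ C15 from 5/2 (0.1327). Calls that rest on C14 and C24, the closest different clones, are also given with them counted as 1 clone. This setting was chosen after seeing the data. Epha4 carries no test in the comparisons that use C14 and C24, and under this setting limma called none of the other members there. The mean of 4 Y-linked genes lay between 5.65 and 5.80 in Trim71-KO libraries and between 5.88 and 6.20 in Trim71-cond libraries, where Ddx3y and Uty each fell by 0.40 (limma adjusted p = 0.000944 and 0.00494), and the part of this in the results of the conditional cells was not tested. It lay between 3.72 and 4.36 in R595H/R595H, 4.02 and 5.61 in R595H/+, and 3.89 and 6.00 in WT libraries. With this mean held as a covariate the R595H/R595H difference from WT was 0.79 ± 0.11 for Epha4 and 0.41 ± 0.12 for Epha2 (limma adjusted p = 0.122 for Epha2).

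The promoters of the receptor genes with the most marked differences between genotypes are shown for orientation (RefSeq, GRCm38.p6, 250 bases before to 50 after the annotated start, written 5′ to 3′ on the strand of the gene). Capitals mark the GC box, GGGCGG or its reverse complement CCGCCC, searched on both strands. Epha4 lies at chr1:77367185-77515088 on the minus strand and its promoter window at chr1:77515039-77515338. Epha2 lies at chr4:141301240-141329384 on the plus strand with its window at chr4:141300971-141301270. Ephb4 lies at chr5:137350109-137378669 on the plus strand with its window at chr5:137349859-137350158.
Epha4: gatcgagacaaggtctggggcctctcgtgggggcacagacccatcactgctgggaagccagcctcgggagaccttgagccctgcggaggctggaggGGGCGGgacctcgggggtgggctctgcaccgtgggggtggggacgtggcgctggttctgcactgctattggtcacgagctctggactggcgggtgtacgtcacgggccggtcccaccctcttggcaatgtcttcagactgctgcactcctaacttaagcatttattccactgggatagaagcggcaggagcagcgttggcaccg
Epha2: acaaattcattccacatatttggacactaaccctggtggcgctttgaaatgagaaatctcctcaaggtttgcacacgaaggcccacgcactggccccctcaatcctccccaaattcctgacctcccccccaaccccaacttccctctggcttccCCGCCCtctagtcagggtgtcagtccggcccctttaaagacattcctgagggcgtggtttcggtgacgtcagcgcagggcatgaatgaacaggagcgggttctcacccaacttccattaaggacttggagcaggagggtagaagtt
Ephb4: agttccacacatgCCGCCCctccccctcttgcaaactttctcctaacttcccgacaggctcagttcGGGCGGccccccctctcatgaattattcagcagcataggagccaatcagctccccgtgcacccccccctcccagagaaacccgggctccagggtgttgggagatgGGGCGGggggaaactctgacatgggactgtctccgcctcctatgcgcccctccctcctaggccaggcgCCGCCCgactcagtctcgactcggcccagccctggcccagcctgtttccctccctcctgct
The Epha4 and Epha2 windows each hold 1 GC box and the Ephb4 window holds 4, and 35.7% of 32851 promoter windows of the same length hold at least 1. Over the 9 named genes, 6 windows hold a GC box. The octamer ATGCAAAT (in 1.7% of all windows) and the E-box CACGTG (in 7.2%) were found in none of the 9. The 3 windows printed hold 17, 10 and 14 CG dinucleotides in the order shown, against a median of 7 over all windows. These matches describe letters in a window and say nothing of binding.

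Per length of exon, Epha2 and Epha4 were the most abundant transcripts of the family in every group. The level per kb is the deposited log2 value less the log2 of the summed exon length, which covers all annotated isoforms. On this scale Epha2 averaged 5.32 in R595H/R595H clones and 4.88 in WT clones, and Epha4 averaged 4.78 and 3.86 in the same clones. Efna4, the ligand gene of the EphA class, followed at 3.58 in R595H/R595H and 3.38 in WT clones. Ephb3, Ephb4 and Ephb2 came next among the members, between 1.45 and 2.05 over the 5 groups. The ephrin-B genes Efnb2 and Efnb1 were the lowest members, with Efnb2 between -0.45 and -0.27 and Efnb1 between -0.90 and -0.72.

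**Figure D1:**
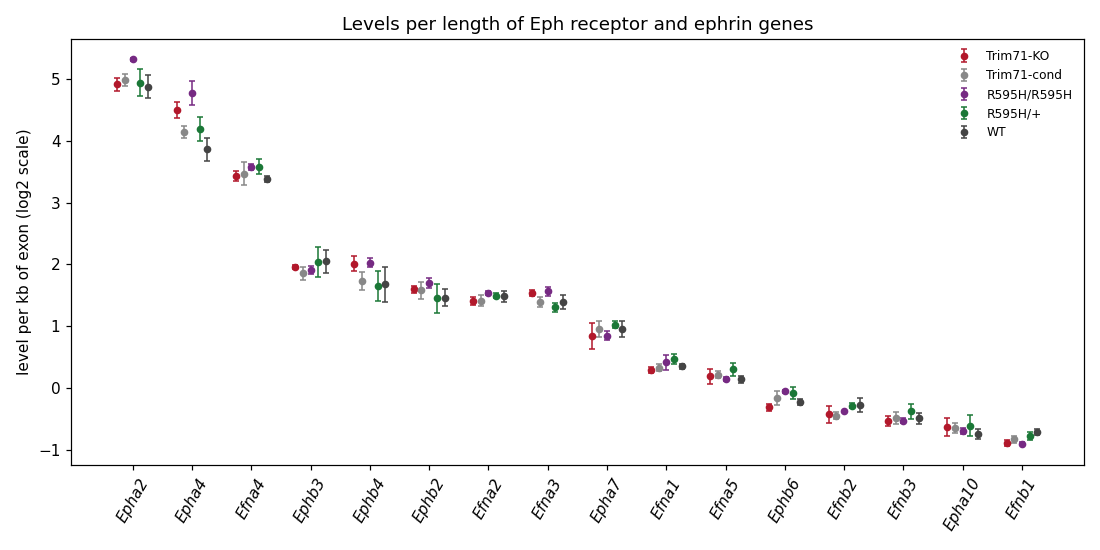
Level per kb of exon on the log2 scale for the 8 members and the 8 other family genes in the table, as group means with SD over libraries (Trim71-KO and Trim71-cond, n = 4 each) or clones (R595H/R595H, R595H/+ and WT, n = 3 each). Epha2, Epha4 and Efna4 stand above all other family genes in every group, and the ephrin-B genes are near the low end.

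Of the 8 members, 6 passed the filter on low values, which asked for an average log2 value of 3.32 or more (10 on the linear scale), in both sets of cells. The members just inside it were Ephb4, with means of 4.09 in the conditional libraries and 4.002 in the clones, and Efna4 (4.13 and 4.19). The member just outside was Efnb2 (2.34 and 2.47), and Efnb1 lay far below (0.93 and 0.99). A difference counted as called where the p from limma, after Benjamini-Hochberg adjustment over all genes tested, was under 0.05.

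Epha4 had the largest differences of the members tested, in the conditional cells and in the homozygous clones. Its level was 7.53 (1A), 7.68 (2B), 7.43 (3A) and 7.39 (3B) in Trim71-KO libraries, against 7.19 (1A), 7.12 (2B), 7.045 (3A) and 7.27 (3B) in Trim71-cond libraries. Every Trim71-KO library was above every Trim71-cond library. The difference was 0.35 ± 0.07 on the log2 scale (SE; 1.28-fold; limma adjusted p = 0.00248), and it ranked 500 by size among the 9580 genes tested. Within the codes, which were not shown to pair the libraries, it was 0.34 (1A), 0.56 (2B), 0.38 (3A) and 0.13 (3B). The call held in each of the 15 alternatives run, with differences between 0.29 and 0.39 and adjusted p between 0.00189 and 0.0116. In bulk RNA, fewer cells of a kind and less RNA per cell cannot be told apart.

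In the R595H/R595H clones Epha4 reached 7.74 and 7.70 (C14, 20/1 and 5/2), 8.01 (C20) and 7.64 (C24). The R595H/+ clones had 7.28 and 7.16 (C15, 20/1 and 5/2), 6.995 (C21) and 7.38 (C23), and the WT clones had 6.85 and 6.91 (C16, 20/1 and 5/2), 7.06 (C7) and 6.68 (C5). All R595H/R595H libraries lay above all R595H/+ and WT libraries, while the R595H/+ and WT ranges overlapped through C21 and C7. The difference of R595H/R595H from WT was 0.92 ± 0.12 (SE; 1.89-fold), the fifth by size of 9587 genes, and that from R595H/+ was 0.59 ± 0.12. It was 0.89 on 20/1, with 1 library in each group, and 0.90 on 5/2. With C14 and C24 as 1 clone it was 0.97 ± 0.13. The R595H/+ clones stood 0.33 ± 0.12 above WT, which was not called (limma adjusted p = 0.568). This difference ranked 88 by size, and the group mean lay between those of the other genotypes. The comparison shares its WT clones with the R595H/R595H difference that was known beforehand.

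Over the 5 groups the Epha4 mean fell in the order R595H/R595H (7.79 ± 0.20), Trim71-KO (7.51 ± 0.13), R595H/+ (7.20 ± 0.20), Trim71-cond (7.16 ± 0.10) and WT (6.87 ± 0.19; SD over clones or libraries). Neighbours in that order overlapped in their single libraries, except that the lowest Trim71-KO library (7.39) was just above the highest R595H/+ library (7.38). The sets of cells differ in origin and handling as well as in genotype, so levels across them are given side by side without a test.

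**Figure D2:**
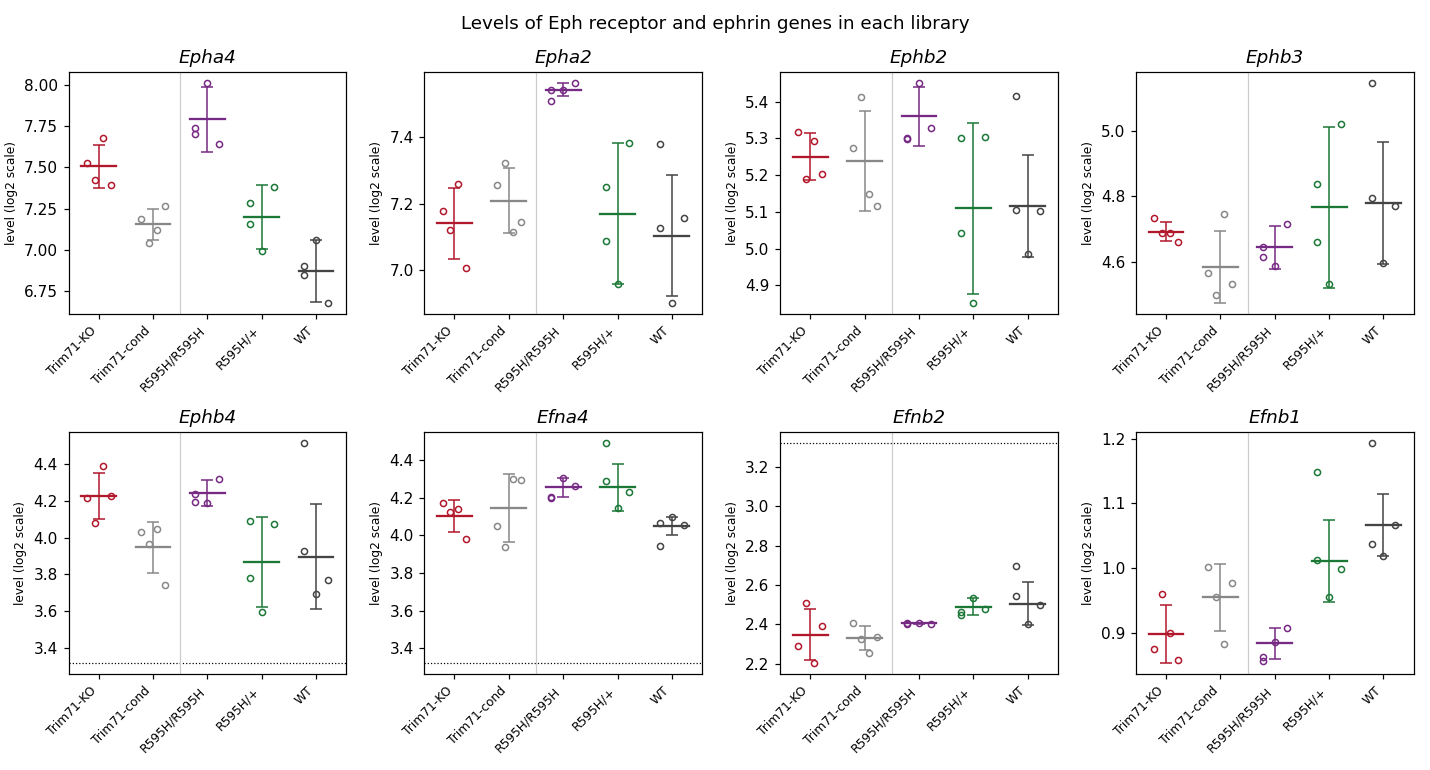
Level of each of the 8 members on the log2 scale in every library (open points), with the group mean and SD over libraries (Trim71-KO and Trim71-cond, n = 4 each) or over clones (R595H/R595H, R595H/+ and WT, n = 3 each). The dotted line is the filter at 3.32 where it falls in the panel, and each panel has its own axis. Epha4 was higher in Trim71-KO than in Trim71-cond libraries without overlap, and Epha2 stood apart only in the R595H/R595H clones.

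Epha2, the receptor gene with the highest level per length, was higher in R595H/R595H than in WT clones, close to the threshold, and was not called in Trim71-KO. It was 7.54 and 7.51 (C14, 20/1 and 5/2), 7.54 (C20) and 7.56 (C24) in R595H/R595H clones, against 7.25 and 7.09 (C15), 6.96 (C21) and 7.38 (C23) in R595H/+ clones and 7.13 and 7.38 (C16), 6.90 (C7) and 7.16 (C5) in WT clones. The homozygous libraries lay close together and above every other library, while the R595H/+ and WT clones spread over the same range. The difference of R595H/R595H from WT was 0.44 ± 0.11 (SE; 1.36-fold; limma adjusted p = 0.0404). It was 0.41 on 20/1 and 0.39 on 5/2. The difference from R595H/+ was 0.37 ± 0.11 and was not called (adjusted p = 0.0972), and R595H/+ minus WT was 0.07 ± 0.11 (adjusted p = 0.936).

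The Epha2 call in R595H/R595H clones against WT was close to the threshold and was lost in 11 of 19 alternatives. The difference was 0.52 without WT C16 (adjusted p = 0.0652), 0.34 without WT C7 (0.15), 0.47 without WT C5 (0.0992), 0.45 without R595H/R595H C14 (0.118), 0.44 without C20 (0.0623), 0.43 without C24 (0.0689) and 0.44 without R595H/+ C15 (0.0686). With C14 and C24 as 1 clone it was 0.44 (adjusted p = 0.0858). The direction held throughout.

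In the conditional cells Epha2 was 7.18 (1A), 7.26 (2B), 7.12 (3A) and 7.005 (3B) in Trim71-KO libraries, against 7.26 (1A), 7.11 (2B), 7.32 (3A) and 7.14 (3B) in Trim71-cond libraries. The groups overlapped and the difference of -0.07 ± 0.07 was not called (SE; 95% interval -0.22 to 0.08; limma adjusted p = 0.548). The effect in Trim71-KO less that in R595H/R595H, fitted in 17 libraries and clones together, was -0.51 ± 0.13 for Epha2 (limma adjusted p = 0.044), a call lost in 17 of 26 alternatives (adjusted p between 0.0207 and 0.161 over all of them, same direction in each). With C14 and C24 as 1 clone it was -0.51 ± 0.14 (adjusted p = 0.0799). For Epha4 the same quantity was -0.57 ± 0.14, given with no test. Genotype cannot be told apart there from the other ways in which the sets of cells differ.

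**Figure D3:**
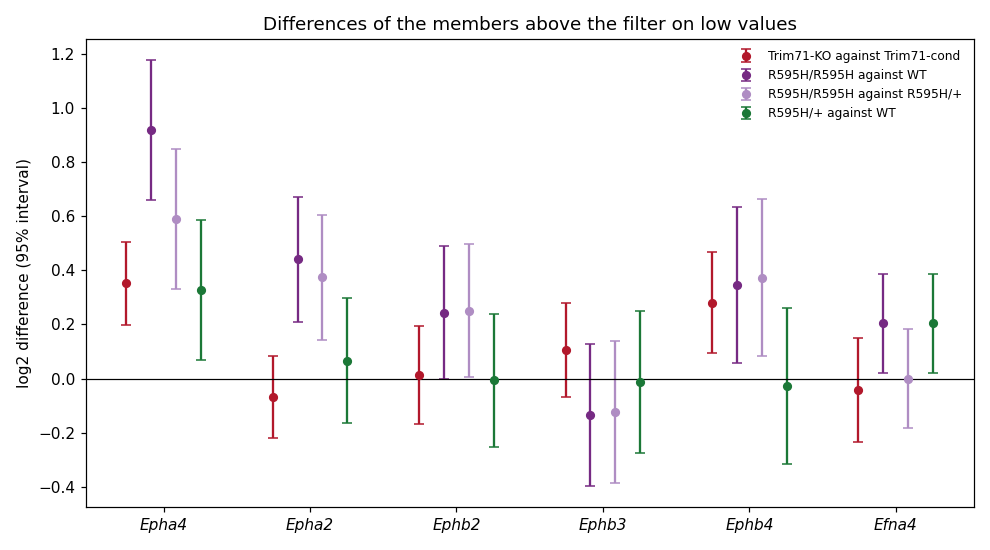
Log2 differences of the 6 members above the filter with 95% intervals from limma, for Trim71-KO against Trim71-cond, R595H/R595H against WT, R595H/R595H against R595H/+, and R595H/+ against WT. The intervals are not adjusted for the number of genes, and those of Epha4 in the comparisons with R595H/R595H clones are a description with no test. The Epha4 interval lay above 0 in Trim71-KO against Trim71-cond. It also did in R595H/+ against WT, which was not called (limma adjusted p = 0.568). The intervals of Epha2 lay above 0 only in the comparisons with R595H/R595H clones, and those of Ephb3 spanned 0 throughout.

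The EphB receptor genes had lower levels per length than Epha2 and Epha4, and Ephb4, a receptor for ephrin-B2 known from blood vessel development, was the one that passed the test. It was 4.215 (1A), 4.385 (2B), 4.08 (3A) and 4.225 (3B) in Trim71-KO libraries, against 4.03 (1A), 4.045 (2B), 3.96 (3A) and 3.745 (3B) in Trim71-cond libraries. The groups did not overlap, with Trim71-KO 3A only just above Trim71-cond 2B. The difference was 0.28 ± 0.09 (SE; 1.21-fold; limma adjusted p = 0.0345). Within the codes it was 0.185 (1A), 0.34 (2B), 0.11 (3A) and 0.48 (3B). The call was lost without Trim71-KO 1A (0.28, adjusted p = 0.0509), 2B (0.23, 0.109) or 3B (0.28, 0.066), and without Trim71-cond 3A (0.29, 0.0587) or 3B (0.21, 0.117), with the same direction each time.

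In R595H/R595H clones Ephb4 was 4.24 and 4.19 (C14, 20/1 and 5/2), 4.19 (C20) and 4.32 (C24), against 4.09 and 3.78 (C15), 3.60 (C21) and 4.07 (C23) in R595H/+ clones. It was 3.93 and 4.51 (C16), 3.695 (C7) and 3.77 (C5) in WT clones. The R595H/R595H clones were above all R595H/+ clones, and of the WT libraries C16 from 5/2 lay above them all and the rest below them. The difference from WT was 0.35 ± 0.14 (adjusted p = 0.162) and that from R595H/+ was 0.37 ± 0.14 (adjusted p = 0.169), neither of which was called. The difference from WT was 0.24 ± 0.18 with 5/2 libraries only (adjusted p = 0.502) and 0.45 ± 0.12 with the 20/1 library of each clone that has both dates in place of 5/2 (adjusted p = 0.06), the second being a setting chosen after seeing the data.

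The C16 library from 5/2 was also the highest WT library for Epha2, Ephb2 and Ephb3. Its excess over the C16 library from 20/1 was 0.58 for Ephb4, 0.35 for Ephb3, 0.31 for Ephb2 and 0.25 for Epha2, but 0.05 for Epha4, where the median absolute difference over all genes tested was 0.0982. In the same libraries Lars2, a gene whose share varied widely, took 6.73% (5/2) and 1.45% (20/1) of the summed back-transformed values. Over all libraries its share ran from 0.33% in R595H/R595H C20 to 13.16% in R595H/R595H C24. The alternative with equal library totals, given below, scales by these sums. The part of Lars2 in the receptor levels was not tested. The C15 libraries differed the other way, by -0.305 for Ephb4 and -0.26 for Ephb2. The C14 libraries agreed within 0.044 for every member.

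Ephb2, another ephrin-B receptor, averaged 5.25 in Trim71-KO and 5.24 in Trim71-cond libraries, a difference of 0.01 ± 0.09 (SE; adjusted p = 0.935). It averaged 5.36 in R595H/R595H, 5.11 in R595H/+ and 5.12 in WT clones. All 3 R595H/R595H clone values were above all WT clone values, but the difference of 0.24 ± 0.12 was not called (adjusted p = 0.24). Ephb3, the third of these receptors, was 4.69 in Trim71-KO and 4.585 in Trim71-cond libraries, and 4.64 in R595H/R595H, 4.77 in R595H/+ and 4.78 in WT clones. Its differences were 0.11 ± 0.08 for Trim71-KO (adjusted p = 0.4) and -0.14 ± 0.12 for R595H/R595H against WT (adjusted p = 0.56).

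Efna4 was the only ligand gene above the filter. It was 4.17 (1A), 4.14 (2B), 4.13 (3A) and 3.98 (3B) in Trim71-KO libraries, against 4.05 (1A), 4.30 (2B), 3.94 (3A) and 4.30 (3B) in Trim71-cond libraries, with a difference of -0.04 ± 0.09 (adjusted p = 0.784). In the clones it was 4.20 and 4.21 (C14), 4.30 (C20) and 4.26 (C24) for R595H/R595H, 4.49 and 4.29 (C15), 4.15 (C21) and 4.23 (C23) for R595H/+, and 3.94 and 4.06 (C16), 4.10 (C7) and 4.05 (C5) for WT. Both mutant genotypes were above all WT clones, by 0.20 ± 0.09 in R595H/R595H (adjusted p = 0.19) and 0.20 ± 0.09 in R595H/+ (adjusted p = 0.62), and neither difference was called. These comparisons share the WT clones.

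Efna4 lies on chromosome 3 (chr3:89333390-89338028, minus strand, GRCm38), and the median difference of 457 tested genes of that chromosome between R595H/R595H and WT clones was 0.11. By clone it was 0.13 in C14, 0.19 in C24 and 0.04 in C20. In R595H/+ clones the median of the same genes was 0.001. The part of these chromosome shifts in the Efna4 levels was not tested. The chromosomes of Epha4, Epha2, Ephb2, Ephb3 and Ephb4 had medians between -0.025 and -0.01 in the same comparison.

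**Figure D4:**
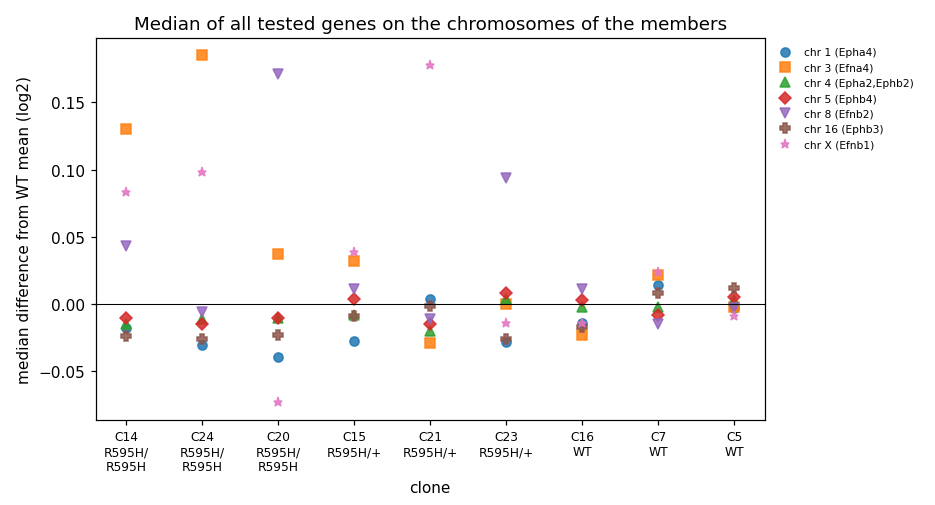
Median log2 difference from the WT mean of all tested genes on the chromosomes that carry a member, for each clone. Chromosome 3 (Efna4) stood at 0.13 in C14 and 0.19 in C24, chromosome 8 (Efnb2) at 0.17 in C20 and chromosome X (Efnb1) at 0.18 in C21, while chromosomes 1, 4, 5 and 16 stayed near 0.

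The ephrin-B ligand genes were below the filter, at levels where the inferred transformation, if right, would draw values together. Efnb1, on chromosome X, was 0.86 and 0.86 (C14), 0.885 (C20) and 0.91 (C24) in R595H/R595H clones, against 1.15 and 1.01 (C15), 0.955 (C21) and 0.998 (C23) in R595H/+ clones and 1.04 and 1.19 (C16), 1.02 (C7) and 1.07 (C5) in WT clones. All homozygous libraries were below all other clonal libraries. In a fit of all 13283 genes without the filter the difference from WT was -0.18 ± 0.04 (limma adjusted p = 0.038), where 2.54% of genes were called. The call was lost with C14 and C24 as 1 clone (-0.18 ± 0.05, adjusted p = 0.111), with the Y-linked covariate (-0.18, 0.0908), and without C16 (-0.16, 0.132), C14 (-0.17, 0.189), C7 (-0.21, 0.0669), C20 (-0.18, 0.0645), C5 (-0.18, 0.0979) or C24 (-0.195, 0.061), and lay at the threshold without C15 (-0.18, 0.05). The median difference of tested genes of chromosome X from WT was 0.08 in C14, 0.10 in C24 and -0.07 in C20, and its part in the Efnb1 levels was not tested. In the conditional cells Efnb1 averaged 0.90 in Trim71-KO and 0.955 in Trim71-cond libraries, a difference of -0.06 ± 0.04 in the unfiltered fit (adjusted p = 0.378). Efnb2, the ligand of EPHB4, averaged 2.35 in Trim71-KO and 2.33 in Trim71-cond libraries, and 2.405 in R595H/R595H, 2.49 in R595H/+ and 2.505 in WT clones. Its differences in the unfiltered fits were 0.02 ± 0.07 (adjusted p = 0.889) for Trim71-KO and -0.10 ± 0.06 (adjusted p = 0.406) for R595H/R595H against WT.

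Counted over the 6 members tested, 2 were called higher in Trim71-KO than in Trim71-cond libraries (Epha4 and Ephb4) and 0 lower, where 18.6% of 9580 genes were called, 9.24% higher and 9.37% lower. In comparisons with R595H/R595H clones Epha4 is left out of the counts of calls. In R595H/R595H against WT clones 1 of the other 5 was called higher (Epha2) and 0 lower, where 3.42% of 9587 genes were called, 2.19% higher and 1.23% lower. In R595H/R595H against R595H/+ clones limma called 0 of the 5, with Epha2, Ephb2 and Ephb4 at an unadjusted p under 0.05, where 0.772% of genes were called and 18.7% had such a p. In the difference of the effects 1 of the 5 was called (Epha2), where 1.42% of genes were. In R595H/+ against WT clones limma called 0 of the 6 and 0 of 9587 genes, with Epha4 and Efna4 at an unadjusted p under 0.05, as were 7.66% of all genes. Groups did not overlap, with the first named higher, for 2 of the 6 members in Trim71-KO against Trim71-cond (10.6% of all genes), 4 in R595H/R595H against WT (14.3%), 3 in R595H/R595H against R595H/+ (12.4%) and 1 in R595H/+ against WT (6.27%), Epha4 being among those of the first 3 comparisons. The median difference of the 6 members, Epha4 included, was 0.06 in Trim71-KO, 0.29 in R595H/R595H and 0.03 in R595H/+ against their controls, where the median of all genes was -0.0028, -0.0023 and -3e-04 in the same comparisons. The median and the counts without overlap that use R595H/R595H clones hold the Epha4 value known beforehand and are a description. Against WT the other 5 differed by 0.44 (Epha2), 0.345 (Ephb4), 0.244 (Ephb2), 0.204 (Efna4) and -0.136 (Ephb3).

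The other genes of the family were mostly low or not in the table. Of 13 named, 8 were found and only Epha7, an EphA receptor gene, passed the filter. It averaged 4.15 in Trim71-KO and 4.26 in Trim71-cond libraries (difference -0.12 ± 0.10, SE; adjusted p = 0.444), and 4.15 in R595H/R595H and 4.25 in WT clones (-0.10 ± 0.09; adjusted p = 0.537). Efna3, Efna2, Epha10, Efna5, Ephb6, Efna1 and Efnb3 lay between 1.06 and 2.92 in single libraries. In the unfiltered fits of the 4 comparisons none of the 7 was called by limma. The smallest adjusted p were 0.0744 for Ephb6 in Trim71-KO against Trim71-cond (-0.15 ± 0.06) and 0.0913 for Efna3 in R595H/R595H against R595H/+ (0.26 ± 0.07). An unadjusted p under 0.05 was found for 2 of the 7 in Trim71-KO against Trim71-cond (28.7% of all genes), 2 in R595H/R595H against WT (20.0%), 2 in R595H/+ against WT (8.35%) and 3 in R595H/R595H against R595H/+ (18.3%).

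Of 51 genes that act around Eph receptors and ephrins (adaptors and kinases, regulators of small GTPases, and ligand partners and proteases), 49 were in the table and 43 were tested. In Trim71-KO against Trim71-cond libraries 6 rose and 2 fell, where 9.24% of all genes tested rose and 9.37% fell. Adam10, a protease that cleaves ephrins from the cell surface, rose by 0.31 (adjusted p = 0.00257). Sdcbp, which encodes syntenin, a PDZ protein that binds ephrin-B tails, rose by 0.30 (adjusted p = 0.0042). The adaptor genes Grb10 and Nck1 rose by 0.30 each, and the PI3 kinase subunit gene Pik3r1 and the GTPase gene Rhoa were the other members that rose. Chn1, encoding a Rac GTPase-activating protein that acts below EPHA4 in neurons, fell by 0.34, and Inppl1, encoding the lipid phosphatase SHIP2 that binds EPHA2, fell by 0.27. The median of the 43 was -0.04.

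In R595H/R595H against WT clones the list held 0 genes that rose and 1 that fell, where 2.19% of all genes rose and 1.23% fell. This was Rasa1, a Ras GTPase-activating protein that binds EphB receptors, with -0.34 (limma adjusted p = 0.0306). That call was lost with C14 and C24 as 1 clone (-0.35, adjusted p = 0.077), with the Y-linked covariate (-0.34, 0.0733), and without C16 (-0.36, 0.0761), C14 (-0.36, 0.117), C15 (-0.34, 0.0534), C7 (-0.28, 0.107), C20 (-0.30, 0.0606), C5 (-0.365, 0.068) or C24 (-0.35, 0.0552). Limma called none of the 43 in R595H/+ against WT or in R595H/R595H against R595H/+ clones, where it called 0% and 0.772% of all genes. In the same order, 1 and 4 of the 43 had an unadjusted p under 0.05, as had 7.66% and 18.7% of all genes. In the effect of Trim71-KO less that of R595H/R595H, 1 of the 43 was called, where 1.42% of all genes were. This was Sdcbp, which differed by 0.39 (limma adjusted p = 0.0455), or by 0.39 with C14 and C24 as 1 clone (adjusted p = 0.0961).

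Across the 8 conditional libraries and the 9 clones, each set centred on its own mean, Epha2 and Ephb2 varied most alike among the members, with a Pearson r of 0.89. Ephb2 and Ephb4 followed (0.761), then Epha2 and Ephb4 (0.69), Epha4 and Ephb4 (0.655) and Epha4 and Epha2 (0.641). Efna4 reached at most 0.469, with Epha4, and Ephb3 at most 0.437, with Ephb4. These values describe 17 libraries and clones that share genotypes, dates and libraries. Epha2 and Ephb2 both lie on chromosome 4.

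Among 9530 genes compared in the same way, the 5 most like Epha4 were Slc4a11 (r = 0.948), a membrane transporter gene, Cisd3 (0.927), which encodes a mitochondrial iron-sulfur protein, Calu (0.923), which encodes the calcium-binding protein calumenin, Rnf13 (0.922), a ubiquitin ligase gene, and Cth (0.917), which encodes cystathionine gamma-lyase. For Epha2 the gene most alike was 2510039O18Rik (0.926), for Ephb2 Pqbp1 (0.90), for Ephb3 Pxn (0.808), for Ephb4 Ogdhl (0.929) and for Efna4 Plpp1 (0.832).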

How the data were processed

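Bulk mRNA was measured in 20 libraries of mouse embryonic stem cells, 8 from the conditional cells and 12 from 9 clones. The authors deposited 1 table of normalized values on a log2 scale, with CASAVA 1.8, STAR and DESeq2 named per the submitters' processing notes. Not given in the sources used here are the genome build, annotation, counting step, strand use and transformation. Base 2 and a regularized log were inferred, so folds rest on that inference and are understated for low genes, and reads of overlapping genes could not be told apart. The values run from -0.65 to 18, with 1.58% below 0, and hold no read depth.

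The values were tested as deposited with limma 3.58.1 in R 4.3.3 (trend and robust) after a filter at a mean of 3.32, with Benjamini-Hochberg adjustment over all genes. The conditional fit held 8 libraries, the clonal fit 9 clones in 3 groups, and the fit of the difference between the effects all 17. The scripts were tested on simulated data. Named genes were the members, the other family genes, Trim71, up to 4 called signalling genes per direction with the smallest p, the 5 genes most like Epha4, and the gene most like each other member. Where a called signalling gene beyond those 4 is named, it was chosen after its values were seen. The members and lists were chosen with earlier results of these data known. Positions are from GENCODE vM21 (GRCm38), which lists 13156 of the 13283 symbols exactly once.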

Additional observations from a re-analysis of the deposited data

Results flagged for a closer look

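A difference between the effect in the conditional cells and that in the homozygous clones was found for Epha2, close to the threshold. The effect in Trim71-KO less that in R595H/R595H was -0.51 ± 0.13 for Epha2 (SE; limma adjusted p = 0.044), where Trim71-KO minus Trim71-cond was -0.07 ± 0.07 and R595H/R595H minus WT was 0.44 ± 0.11. The call was lost in 17 of 26 alternatives, all with the same direction, with values from -0.58 to -0.41 and adjusted p between 0.0207 and 0.161. Leaving out either library of 3A or of 3B, Trim71-cond 1A or 2B, or any of the clones C14, C15, C7, C20, C5 and C24 was enough, the values closest to 0 being -0.41 without WT C7, -0.46 without Trim71-KO 3B and -0.47 without Trim71-cond 3A. For Epha4 the same quantity was -0.57 ± 0.14, from 0.35 ± 0.07 in Trim71-KO and 0.92 ± 0.12 in R595H/R595H, and it carries no test because the second of these was known beforehand. No library of a member stood apart from its group by Dixon's test in the 16 groups of 4 libraries examined.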

How the results depend on the processing

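The Epha4 rise in Trim71-KO libraries was called in each of 15 alternatives, and its R595H/R595H difference from WT kept its direction in each of 19, between 0.79 and 1.01. In comparisons with R595H/R595H clones Epha4 is left out of the counts of members called in this section. The number in Trim71-KO was 1 in place of 2 with a filter at a mean of 50 on the linear scale, with both libraries of code 1A left out, and with the replicate block; Ephb4 was the call lost in the last pair (it was not tested under the higher filter), with 0.28 and an adjusted p of 0.0526 under the block. Under the block 1392 genes were called, against 1783. The codes were not shown to pair the libraries. Same-code deviations from the group means correlated at -0.89 (1A), -0.089 (2B), -0.117 (3A) and 0.13 (3B). Only Trim71-KO 3B correlated best with the library of its own code, and every other library correlated best with one of another code.

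In R595H/R595H against WT clones 0 members were called in place of 1 (Epha2) with equal library totals or with 5/2 libraries only. The same held with the Y-linked mean as a covariate, and with C14 and C24 as 1 clone (chosen after seeing the data). Without the filter 2 were called, Efnb1 being the addition, where 2.54% of all genes were called, against 3.42% in the main fit. In R595H/R595H against R595H/+ clones 0 were called in the main fit and in each alternative. These included 20/1 libraries in place of 5/2 (also chosen after seeing the data) and only the genotypes compared. In the difference of the effects 0 were called in place of 1 (Epha2) with equal totals, with limma without trend or robust, and with the block. The same held with 5/2 libraries only and with C14 and C24 as 1 clone. Leaving out 1 library or clone at a time gave 1 to 2 members in Trim71-KO and 0 to 1 in R595H/R595H against WT. It gave 0 in R595H/R595H against R595H/+ and 0 to 1 in the difference of the effects. The causes were not tested. For most of these settings the share of all genes called is not set beside the count, so the counts describe the settings and not the members.

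Only differences that were not called changed sign. With 5/2 libraries only, Epha2 in R595H/+ against WT was -0.003, Efna4 in R595H/R595H against R595H/+ was 0.035 and Ephb4 in the difference of the effects was 0.039. With 20/1 libraries in place of 5/2, R595H/+ against WT was 0.088 for Ephb2, 0.075 for Ephb3 and 0.121 for Ephb4. With the Y-linked covariate it was 0.008 for Ephb2 and 0.001 for Ephb3, and Efna4 in R595H/R595H against R595H/+ was 0.008, or 0.012 with C14 and C24 as 1 clone. Leaving out 1 library or clone gave, in Trim71-KO, -0.028 to 0.072 for Ephb2 and -0.112 to 0.009 for Efna4. In R595H/+ against WT it gave -0.04 to 0.172 for Epha2, -0.104 to 0.122 for Ephb2, -0.14 to 0.105 for Ephb3 and -0.129 to 0.135 for Ephb4. In R595H/R595H against R595H/+ it gave -0.241 to 0.004 for Ephb3 and -0.055 to 0.067 for Efna4, and in the difference of the effects -0.227 to 0.035 for Ephb4. Quantile normalization changed no call of a member. The read depth is unknown, so no counting error can be set beside the low levels of Efnb1 and Efnb2.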
